A study of Mus musculus with 6 samples.

Results

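The Sox transcription factors described here are the 10 genes Sox2, Sox4, Sox5, Sox6, Sox8, Sox9, Sox10, Sox11, Sox12 and Sox13, found by symbol among the 23284 genes of the count table. Their RNA was compared between MV+, a mouse lens epithelial line that expresses Pax6, and RAG, a mouse renal adenocarcinoma line in which Pax6 is off. The 2 lines come from different strains, C57BL6 for MV+ and BALB/c for RAG, and line, tissue and strain cannot be told apart. Each line was grown untreated in the same serum-containing medium, and 3 libraries were made from separate flasks. Error terms thus reflect flasks of the same line, not lines of a kind, and the age of the mice of origin is not given in the sources used here.

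Sox proteins bind DNA through the HMG box, a domain first known from Sry, which inserts into the minor groove and bends the helix. They are grouped by the similarity of this box, and members of a group often act on the same targets with different partner proteins. In the developing lens, Sox2 works together with Pax6, which in the chicken is known from the delta-crystallin enhancer, and Sox11 takes part in the separation of the lens from the surface. In the kidney, Sox9 and Sox8 act in branching of the ureteric bud, and Sox9 is known from tubule repair.

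The members fall into the SoxB1 (Sox2), SoxC (Sox4, Sox11, Sox12), SoxD (Sox5, Sox6, Sox13) and SoxE (Sox8, Sox9, Sox10) groups. A 60-base coding stretch from each HMG box is shown because likeness between members decides both the groups and how well reads can be told apart. The sequences are from the GENCODE vM1 transcripts of NCBIM37 (mm9), and capitals mark the 27 positions that are identical in all 10 genes.
Sox2 HMG box: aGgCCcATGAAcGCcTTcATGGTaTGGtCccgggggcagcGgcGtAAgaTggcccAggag
Sox4 HMG box: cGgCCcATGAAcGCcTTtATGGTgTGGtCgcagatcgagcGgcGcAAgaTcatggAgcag
Sox11 HMG box: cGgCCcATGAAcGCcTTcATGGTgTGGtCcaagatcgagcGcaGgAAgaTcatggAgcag
Sox12 HMG box: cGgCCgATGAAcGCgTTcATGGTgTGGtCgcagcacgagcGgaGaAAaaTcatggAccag
Sox5 HMG box: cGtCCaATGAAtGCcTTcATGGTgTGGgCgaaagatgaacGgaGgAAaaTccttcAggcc
Sox6 HMG box: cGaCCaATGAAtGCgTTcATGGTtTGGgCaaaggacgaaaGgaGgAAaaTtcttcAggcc
Sox13 HMG box: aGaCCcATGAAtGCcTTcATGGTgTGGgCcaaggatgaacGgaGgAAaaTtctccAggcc
Sox8 HMG box: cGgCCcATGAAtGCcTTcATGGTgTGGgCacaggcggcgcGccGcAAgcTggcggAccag
Sox9 HMG box: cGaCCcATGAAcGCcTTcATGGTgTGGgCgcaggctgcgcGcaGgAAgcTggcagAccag
Sox10 HMG box: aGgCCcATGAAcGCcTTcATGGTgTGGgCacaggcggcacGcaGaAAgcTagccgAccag

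Over the 237 bases compared, members of 1 group were 81.4 to 89.5% identical in 9 pairs, with a median of 84.4%. Members of different groups were 53.2 to 71.7% identical in 36 pairs, with a median of 63.3%. Sox4 and Sox11 were the closest pair, at 89.5%. Among the 45 pairs of members, the longest stretch that the counted exons of 1 pair had in common was 48 bases, between Sox4 and Sox11, which is shorter than the 50-nt reads. A read without mismatches inside an exon thus fits no more than 1 of the 10 genes, and reads with mismatches were not examined.

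**Figure D1:**
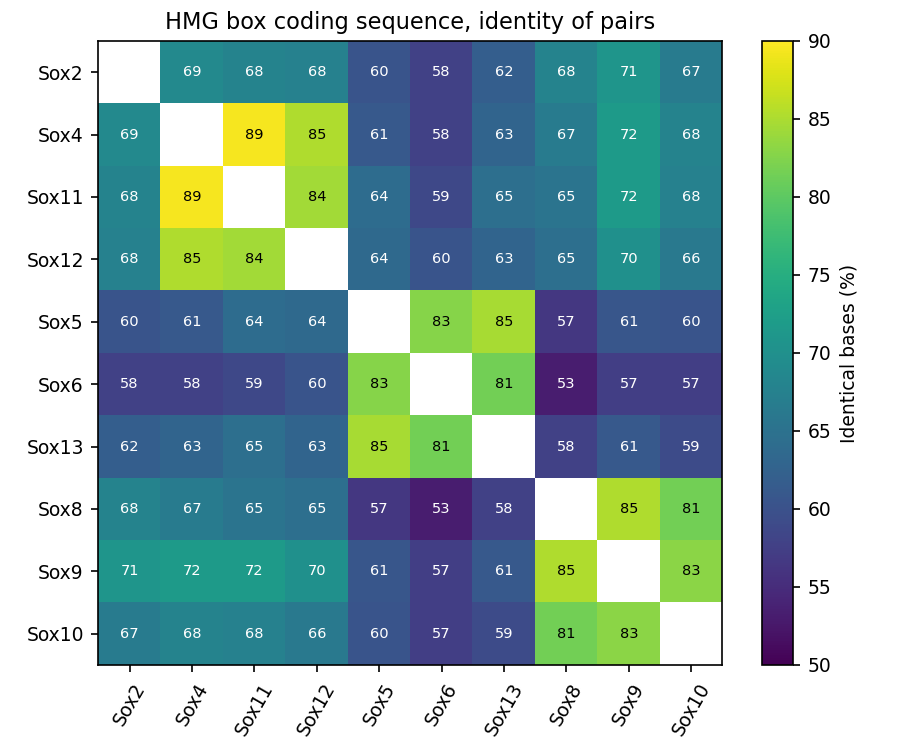
Percent identical bases between the HMG box coding sequences of each pair of Sox genes, with genes in the order of their groups. The blocks along the diagonal are the SoxC, SoxD and SoxE groups, at 81.4 to 89.5%, and all other pairs lie between 53.2 and 71.7%.

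Library totals were 17413045 to 22428230 counts in MV+ and 28252165 to 43168532 in RAG. The RNA matched the labels in part. Of 8 lens epithelium markers, 7 were above 3 counts summed over the line in MV+ and 4 in RAG, with Foxe3 at 0 in both lines. Of 8 kidney epithelium markers, 2 passed in MV+ and 7 in RAG, with Epcam at 0 in RAG. Some that passed were close to this limit. Cdh1, which is on both lists, had only 4 counts in MV+ and 8 in RAG, and Pax6 had 4 in RAG. The lens markers summed to 128 to 151 CPM (the count scaled to library size with TMM factors) in MV+ and 73.6 to 86.3 in RAG. Most of the lens marker sum in RAG was Cryab, at 69.9 to 83.4 CPM, against 31.9 to 39.7 CPM in MV+. Fibroblast markers, 3 of 4 detected in MV+ and 2 in RAG, summed to far more in MV+, at 1292 to 1794 CPM against 4.62 to 5.79, with Col3a1 at 0 in RAG. Most of the MV+ sum was Col1a1, at 1278 ± 266 CPM in MV+ (SD, n = 3). The RAG sum was mostly Pdgfra, which ran opposite to the collagens. Pdgfra was called lower in MV+, where it averaged 1.13 CPM, against a RAG mean of 5.03 CPM. Thy1 had 1 count in each line. The 4 fibroblast markers thus did not all point to MV+. Of 3 leukocyte markers, 1 was detected in MV+ and 2 in RAG, with sums of 1.84 to 2.12 and 91.5 to 106 CPM, mostly Cd68 in RAG. The part of such cells or states in the Sox levels was not tested. Pax6 itself had 3611 counts in MV+ and 4 in RAG over the 3 libraries of each line. Of 12965 genes tested with edgeR's quasi-likelihood test, 79.3% were called different at an adjusted p under 0.05, of which the higher calls were 40.4% of all genes tested and the lower calls 38.9%, so a call between these lines is common. Of the 10 Sox genes, 7 had enough counts to be tested, 5 were called higher in MV+ and 2 lower, and Sox5, Sox6 and Sox10 were too low. The median log2 fold change of the 7 was 1.45, against 0.03 over all genes tested. Some of the 7 passed the filter only through the line where they were high, so these counts support nothing about the family. In bulk RNA, fewer expressing cells and less RNA per cell cannot be told apart.

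**Figure D2:**
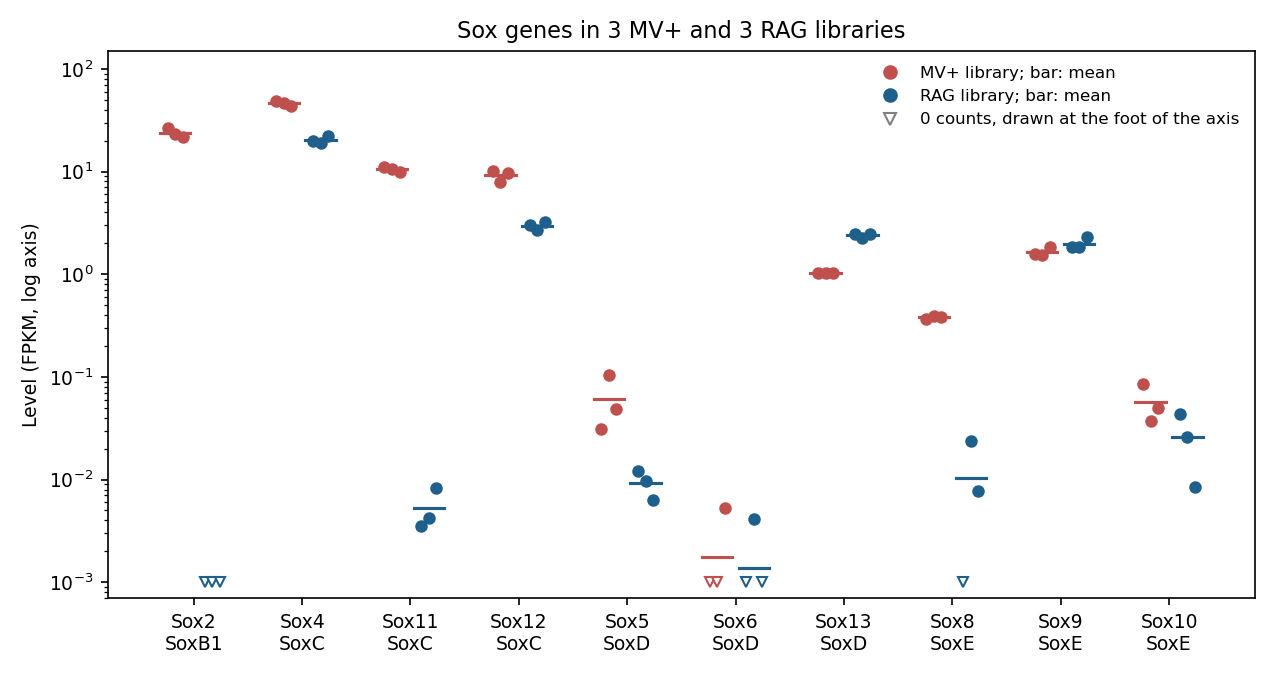
Level of each Sox gene in FPKM, the count scaled by exon length and by the library's assigned counts (log axis), in 3 MV+ and 3 RAG libraries, with bars for the mean of a line. Sox2 had 23.7 FPKM in MV+ and 0 in RAG, Sox11 had 10.5 and 0.0053 FPKM, and Sox4 led in both lines.

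Sox2, a SoxB1 factor of stem cells, neural progenitors and the early lens, was expressed in MV+ and not detected in RAG. The gene has 1 exon of 2456 bases on the plus strand of chromosome 3, at 34548927 to 34551382 (mm9). It had 1134, 1112 and 1183 counts in the MV+ libraries and 0 in each RAG library. In MV+ this was 23.7 ± 2.59 FPKM (SD, n = 3), above 79.4% of the genes with a count in that line. Against a floor of 3 counts summed over the RAG libraries, Sox2 was at least 1789-fold higher in MV+ (adjusted p = 6.97e-13, edgeR). Sox2 lies in an intron of Sox2ot, a long non-coding RNA on the same strand. The exons of the 2 genes share 0 bases. Sox2ot had 9, 14 and 24 counts in MV+ and 0, 4 and 0 in RAG.

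Sox21, a repressor of the related SoxB2 group, followed the same order. It had 149, 158 and 182 counts in MV+ and 0 in every RAG library, which makes it at least 255-fold higher in MV+. Within MV+, the FPKM of Sox2 was 10.9 ± 0.859 times that of Sox21 (SD, n = 3). The other SoxB genes were absent or nearly so, with 1 count of Sox3 in MV+ and none of Sox1 or Sox14 in either line. Of 10 further Sox genes in the table, Sox21 was the only one tested. Sox15 had 16 counts in MV+ and 15 in RAG, Sox18 had 1 count in RAG, and Sox7, Sox17, Sox30 and Sry had 0.

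Among 19 partners of Sox2 and genes used with it as progenitor markers, 6 were tested, of which 3 were called higher in MV+ and 1 lower, or 4 and 2 in edgeR with the replicate number as a block. Without RAG replicate 1 the lower calls were also 2. The median log2 fold change of the 6 was 0.54. Among all genes tested, 40.4% were called higher and 38.9% lower. Nes passed the count filter only through MV+ and Pou3f3 only through RAG, so these counts support nothing about the list. Nes, the neural progenitor filament nestin, had 12771 counts in MV+ and 0 in RAG, at least 6661-fold. Msi1, an RNA-binding protein of progenitors, measured 17.2 ± 2.08 CPM in MV+ against 1.67 ± 0.407 in RAG. Pou2f1, a broadly expressed POU factor, was at 31.4 and 16.3 CPM. Pou3f3, a POU factor of brain and kidney, went the other way with 1 count in MV+ and 2091 in RAG. In the main fit, Notch1 and Klf4 were not called. The other 13 listed genes did not pass the count filter. Sall4, Utf1, Fgf4 and Zfp42 had no counts in either line. Pou5f1, Nanog, Lin28a, Pou3f2, Hes5 and Fabp7 had at most 2 counts per line. Fut4 had 29 counts in MV+ and 1 in RAG, Prom1 had 1 and 21, and Esrrb 0 and 7. Nes and Msi1 thus do not stand for the whole list.

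All 3 SoxC genes, activators known from neuronal, heart and eye development, were called higher in MV+, by very different amounts. Each has 1 exon on the minus strand. Sox4, on chromosome 13 at 29042599 to 29045551, was the most abundant Sox RNA per length in both lines. It had 2478, 2725 and 2865 counts in MV+ and 1965, 1589 and 2834 in the deeper RAG libraries, or 46.1 ± 2.55 and 20.3 ± 1.68 FPKM (SD, n = 3). By FPKM, the libraries of the lines did not overlap. The log2 fold change was 1.00 ± 0.07 (SE, adjusted p = 5.21e-09, edgeR). Sox4 stood above 90.1% of the genes with a count in MV+ and above 77% in RAG.

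Sox11, on chromosome 12 at 28019133 to 28027583, had 1636, 1748 and 1860 counts in MV+. The RAG libraries held 1, 1 and 3 counts, which sum to 5, just above the floor of 3 counts summed over a line. Its level was 10.5 ± 0.652 FPKM in MV+ and 0.0053 FPKM in RAG, and the log2 fold change was 10.57 ± 0.18 (SE, adjusted p = 1.04e-16, edgeR). With 5 counts in RAG, the ratio of 1641 had a 95% counting interval from 703 to 5057.

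Sox12, the third SoxC gene, lies on chromosome 2 at 152219348 to 152223782. It had 787, 684 and 962 counts in MV+ and 449, 336 and 618 in RAG, or 9.23 ± 1.24 and 2.97 ± 0.274 FPKM (SD, n = 3). By FPKM, the lowest MV+ library was above the highest RAG library, and the log2 fold change was 1.45 ± 0.11 (SE, adjusted p = 4.53e-09, edgeR). Sox12 was the most variable of the well-expressed members in MV+, with a coefficient of variation of 13.4%, against 5.54% for Sox4 and 6.23% for Sox11. In MV+, Sox11 and Sox12 overlapped in FPKM.

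The ratios within the SoxC group were compared in each library. Sox4 exceeded Sox11 by 4.40 ± 0.0636 times in FPKM in MV+ (SD, n = 3), with 4.33 to 4.46 in single libraries, and by 2703 to 5624 times in RAG. The RAG ratio divides by 1, 1 and 3 counts of Sox11, so its size and spread are poorly determined. The ratio of Sox4 to Sox12 was 5.06 ± 0.808 in MV+ and 6.85 ± 0.266 in RAG, and its libraries did not overlap. An unpaired exact permutation test gave p = 0.1 for each ratio, the smallest that 3 against 3 libraries allow, and the adjusted p over 9 such tests was 0.1. With libraries paired by number, the exact p was 0.25, the smallest that 3 pairs allow.

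Neuronal differentiation genes linked to SoxC factors were examined beside them. Of 11 listed, 5 were tested, and all 5 were called higher in MV+, with a median log2 fold change of 4.90. Over all genes tested, 40.4% were called higher. Some of the 5, such as Mtap2, passed the count filter only through MV+, so this count supports nothing about the list. Mtap2, a dendritic microtubule protein, had 5175 counts in MV+ and 0 in RAG, at least 2699-fold. Tubb3, a neuronal tubulin that Sox4 and Sox11 are known to activate, measured 19.5 ± 2.05 CPM in MV+ against 0.367 ± 0.223 in RAG. Gap43, a growth cone protein, had 142 and 7 counts. Summed over 5 neuronal markers the level was 18 to 21.7 CPM in MV+ and 0.560 to 1.53 in RAG, nearly all of it Tubb3, at 17.2 to 20.8 CPM in single MV+ libraries. Elavl3 had 20 counts in MV+ and 21 in RAG, Snap25 had 4 and 7, and Stmn2 went the other way, with 0 and 25. Without the count filter, 1 gene of the list was called lower in MV+. The part of other cells in these levels was not tested.

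SoxD factors, which lack an activation domain of their own and pair through a coiled coil, were low in both lines. Sox13, known from T cells and as an autoantigen, was called lower in MV+. It lies on the minus strand of chromosome 1 at 135278877 to 135320789, with 14 exon pieces of 3531 bases. The MV+ libraries had 1.02, 1.02 and 1.02 FPKM and the RAG libraries 2.49, 2.26 and 2.48, with no overlap. The log2 fold change was -1.42 ± 0.12 (SE, adjusted p = 3.96e-08, edgeR), or 2.67-fold lower in MV+.

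Sox5 and Sox6, the partners of Sox9 in cartilage, were near the limit of detection. Sox5, on chromosome 6 at 143776945 to 144158088, had 4, 15 and 8 counts in MV+ and 3, 2 and 2 in RAG. In CPM the lines did not overlap, as for 80.6% of tested genes, and the ratio was 6.04 with a 95% counting interval from 2.56 to 16.4. Sox5 did not pass the count filter. Without the filter its log2 fold change was 2.49 (adjusted p = 0.000239, edgeR), and DESeq2 gave 2.55 (adjusted p = 0.00899). Limma on log2(FPKM + 1) without the filter gave 0.07 and did not call it (adjusted p = 0.116). Sox6, on chromosome 7 at 122614858 to 123182258, had 1 count in each line.

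**Figure D3:**
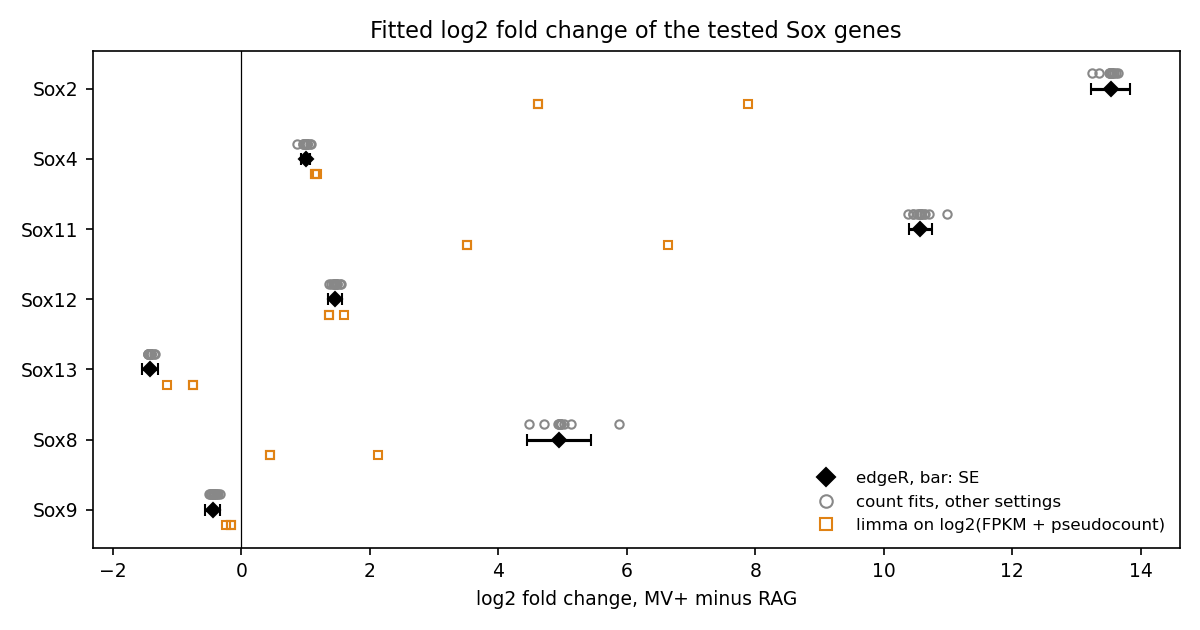
Log2 fold change, MV+ minus RAG, of the 7 tested Sox genes from edgeR (diamonds, bars for SE), from other count fits (circles) and from limma on log2(FPKM + pseudocount) (squares). The fitted value of Sox2 depends on the prior count because RAG had 0 counts. Sox9 lies nearest to 0, at -0.44 ± 0.12. The squares lie nearer to 0 than the diamonds for Sox2, Sox11, Sox13, Sox8 and Sox9.

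The 3 SoxE genes, which act in the neural crest, glia, cartilage and testis, were called higher (Sox8), called lower (Sox9) and too low to test (Sox10). Sox8, on chromosome 17 at 25702838 to 25707631, had 19, 23 and 26 counts in MV+ and 0, 2 and 1 in RAG. These were 0.380 ± 0.014 and 0.0104 ± 0.012 FPKM (SD, n = 3), so the gene was low in both lines and the libraries did not overlap. The log2 fold change was 4.95 ± 0.50 (SE, adjusted p = 1.97e-07, edgeR), and 5.88 without RAG replicate 2. With 3 counts in RAG, the ratio of 35.5 had a 95% counting interval from 11.6 to 176.

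Sox9, the regulator of cartilage and testis that also acts in the ureteric bud, was the member whose level differed least among those tested. The gene is on the plus strand of chromosome 11 at 112643524 to 112649071. It was at 6.34, 5.99 and 6.92 CPM in MV+ and 8.41, 8.21 and 9.52 CPM in RAG, with no overlap. The log2 fold change was -0.44 ± 0.12 (SE, adjusted p = 0.00274, edgeR). In FPKM the libraries overlapped, at 1.54 to 1.83 in MV+ and 1.82 to 2.29 in RAG. Limma on log2(FPKM + 1) gave -0.17 with an adjusted p of 0.0949, and edgeR without MV+ replicates 1 and 2 gave -0.33 with 0.0962. The latter fit has 1 MV+ library, which is assumed to vary like the RAG libraries, so its missed threshold is a weak check.

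Sox10, the factor of glia and pigment cells, had 4, 2 and 3 counts in MV+ and 4, 2 and 1 in RAG, and was not tested. The gene lies on chromosome 15 at 78985343 to 78994920. The ratio of 2.01 had a 95% counting interval from 0.667 to 6.36, so no difference was detectable at this depth.

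The means of Sox9 and Sox13 stood in opposite order in the lines. The ratio of Sox9 to Sox13 in FPKM was 1.54, 1.51 and 1.79 in MV+ and 0.731, 0.810 and 0.924 in RAG. In MV+ Sox9 was separated from Sox13, whereas in RAG Sox13 had the higher mean and the libraries of the 2 genes overlapped. The exact permutation test of this ratio gave p = 0.1 unpaired and 0.25 paired, again the smallest possible.

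The genes that SoxD and SoxE factors are known to control are given by list. Of 17 cartilage genes of Sox9, Sox5 and Sox6, 6 were tested, with 4 called higher in MV+, 0 lower and a median log2 fold change of 1.72. Of all genes tested, 40.4% were called higher and 38.9% lower. Some of the 6, such as Col27a1, passed the count filter only through MV+, so this count supports nothing about the list. Col27a1, a cartilage collagen, had 336 counts in MV+ and 0 in RAG, at least 175-fold, and Col11a1 had 172 and 2 counts. Chad, a matrix protein of cartilage, was at 1.20 ± 0.235 and 0.263 ± 0.109 CPM (SD, n = 3). Col2a1 and Acan, the defining genes of chondrocytes, were too low to test in both lines. The 4 chondrocyte markers summed to 0.0952 to 0.334 CPM in MV+ and 0.0384 to 0.0929 in RAG. The sum of the fibroblast markers, mostly Col1a1, was also higher in MV+, at 1292 to 1794 CPM against 4.62 to 5.79 in RAG. Pdgfra among these markers was called lower in MV+. The part of such cells in this list was not tested.

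Of 22 genes of Sox10 in neural crest, glia and melanocytes, 8 were tested, with 3 higher in MV+, 4 lower and a median log2 fold change of -0.10. The shares over all genes tested were 40.4% higher and 38.9% lower. Egr2, a myelination factor, measured 7.98 ± 0.871 CPM in MV+ against 0.435 ± 0.0895 in RAG. Ngfr, a neurotrophin receptor of neural crest cells, was at 2.30 ± 0.194 and 33.6 ± 2.81 CPM, and Erbb3, a neuregulin receptor, at 5.33 and 13.8 CPM. The pigment cell genes Dct and Tyr were at 0 in both lines, and 6 glial and pigment cell markers summed to 1.91 to 2.17 CPM in MV+ and 1.05 to 1.6 in RAG. Of 9 Sertoli cell genes that work with Sox9 and Sox8, 5 were tested, with 4 lower calls in MV+, 0 higher calls and a median of -3.05. In each fit without 1 of the RAG libraries, and in that without MV+ replicate 1, 1 gene was called higher. The genes called lower included Ptgds, the prostaglandin D synthase that Sox9 activates in the testis, at 0.139 ± 0.026 and 24.6 ± 0.633 CPM. Some genes of both lists, such as Ptgds, passed the count filter only through the line where they were high. The counts of calls thus support nothing about either list.

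Added over the 10 members, the Sox level was 92.6 ± 5.89 FPKM in MV+ and 27.7 ± 2.27 in RAG (SD, n = 3), 3.34 times as much in MV+. FPKM uses no TMM factors. Limma on FPKM shifted the median log2 fold change of all genes by 0.17 to 0.18 toward MV+, so this ratio depends on the scaling. SoxC genes held the largest share in both lines, at 71.1% ± 0.821 in MV+ and 84.0% ± 0.148 in RAG. Sox2 alone gave SoxB1 25.5% ± 1.15 in MV+ and 0% in RAG. SoxD took 1.18% ± 0.0955 in MV+ and 8.74% ± 0.515 in RAG, and SoxE 2.26% ± 0.285 and 7.25% ± 0.368. The libraries of the lines did not overlap in any of these 4 shares or in the sum, and each exact permutation test gave p = 0.1 unpaired and 0.25 paired by number, the smallest that either test allows. Shares of a sum are tied to each other. Sox4 had 49.8% of the sum of FPKM in MV+ and 73.3% in RAG, although its own level was lower in RAG.

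**Figure D4:**
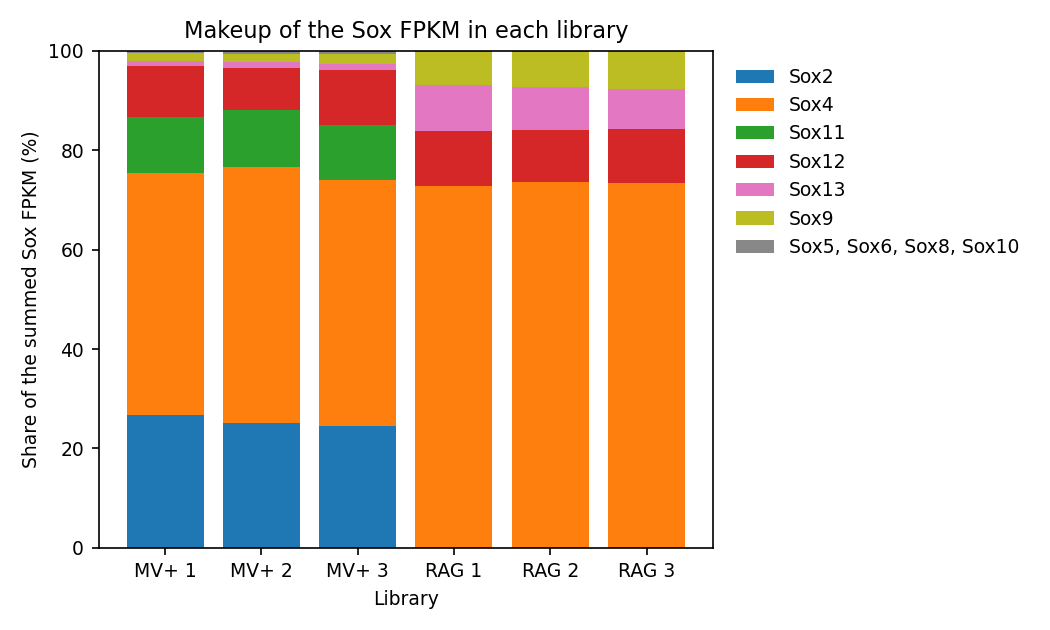
Share of the summed FPKM of the 10 Sox genes (percent) taken by each gene in every library, as stacked bars. Sox4 takes 73.3% on average in RAG and 49.8% in MV+, where Sox2 takes 25.5% and Sox11 11.3%.

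In MV+ the order by FPKM was Sox4, Sox2, Sox11, Sox12, Sox9, Sox13, Sox8, Sox5, Sox10 and Sox6. Neighbours in this order did not overlap between libraries, except Sox11 with Sox12 and Sox5 with Sox10. In RAG the order was Sox4, Sox12, Sox13 and Sox9, followed by Sox10, Sox8, Sox5, Sox11, Sox6 and Sox2 at no more than 0.0436 FPKM in any library. Sox13 overlapped with Sox9 in RAG, and the low genes overlapped with their neighbours.

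Promoter sequences, from 250 bases before to 50 after the start, were found in RefSeq (GRCm38.p6) for 8 of the 10 members. Sox9 and Sox10 were not matched. The 4 shown are those of 3 genes called higher in MV+ and of Sox13, called lower. Capitals mark CCAAT on either strand (ATTGG when it lies on the other strand).
Sox2 promoter: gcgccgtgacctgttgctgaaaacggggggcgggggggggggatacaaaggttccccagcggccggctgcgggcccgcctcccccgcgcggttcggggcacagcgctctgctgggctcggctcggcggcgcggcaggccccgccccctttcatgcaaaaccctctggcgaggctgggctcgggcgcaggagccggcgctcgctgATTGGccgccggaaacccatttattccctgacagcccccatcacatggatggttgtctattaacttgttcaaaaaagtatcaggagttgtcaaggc
Sox4 promoter: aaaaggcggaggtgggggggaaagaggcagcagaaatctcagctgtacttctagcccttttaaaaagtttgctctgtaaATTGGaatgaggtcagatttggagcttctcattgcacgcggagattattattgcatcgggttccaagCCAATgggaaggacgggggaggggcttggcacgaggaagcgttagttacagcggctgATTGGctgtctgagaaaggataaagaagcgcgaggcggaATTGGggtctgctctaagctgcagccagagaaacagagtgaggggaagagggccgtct
Sox11 promoter: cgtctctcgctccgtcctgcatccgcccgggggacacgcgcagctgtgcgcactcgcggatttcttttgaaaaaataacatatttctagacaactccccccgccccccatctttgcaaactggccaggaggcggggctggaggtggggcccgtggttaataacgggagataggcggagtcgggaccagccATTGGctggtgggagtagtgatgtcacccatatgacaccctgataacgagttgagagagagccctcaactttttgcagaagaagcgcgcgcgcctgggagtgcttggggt
Sox13 promoter: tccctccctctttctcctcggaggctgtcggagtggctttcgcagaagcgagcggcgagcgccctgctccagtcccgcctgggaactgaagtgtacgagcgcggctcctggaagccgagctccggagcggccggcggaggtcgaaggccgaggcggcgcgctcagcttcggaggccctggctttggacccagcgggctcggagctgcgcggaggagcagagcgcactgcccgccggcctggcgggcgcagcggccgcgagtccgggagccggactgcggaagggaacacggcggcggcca
CCAAT occurred once in Sox2, 46 bases before the start, once in Sox11, 60 bases before it, and 4 times in Sox4, at 171, 104, 47 and 8 bases. It also occurred in Sox12, and it was found in none of the Sox13, Sox8 and Sox5 windows. Sox6 has 6 windows, of which 3 held CCAAT, 1 held AACAAT and 2 held TATAAA. Of 32851 mouse promoters of the same length, 37.4% held CCAAT. The motif AACAAT, the core that Sox proteins bind, was searched on both strands and occurred in 10.7% of all promoters but in none of the 4 shown. TATAAA, searched likewise, occurred in 13.6% of all and in none of the 4. The GC content was 66.3% in Sox2, 52.0% in Sox4, 58.7% in Sox11 and 73.3% in Sox13, against a median of 52.7%. These matches describe letters in a window and were not linked to a factor.

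The 4 TCF and LEF genes, whose HMG boxes are related to those of Sox factors and which act in Wnt signalling, were all called higher in MV+. Over all genes tested, 40.4% were called higher. Lef1 had 574 counts in MV+ and 0 in RAG, at least 299-fold, and Tcf7l1 had 533 and 0, at least 278-fold. Both passed the count filter only through MV+, so the count of calls supports nothing about the group. Tcf7 measured 51.1 ± 2.16 CPM in MV+ against 7.92 ± 0.366 in RAG. The fitted median was 6.77, which becomes 5.40 when genes without counts take their bound. Among 16 cofactors and modifiers of Sox proteins, all tested, 7 were higher, 5 lower and 4 not called, with a median of 0.14. Of all genes tested, 79.3% were called and 38.9% were lower, so calls were no more common in this list than elsewhere. Ctnnb1, the beta-catenin that several Sox proteins bind, was at 61.1 ± 7.70 and 93.8 ± 12.7 CPM. Med12, a Mediator subunit, was at 58.6 and 31.2 CPM, and Ppargc1a, a coactivator, at 0.230 and 30.7 CPM.

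Genes of the tissues of origin were examined last, since Sox2 and Sox9 are known from them. Of 27 lens genes, 11 were tested, with 8 higher in MV+ and 2 lower. The fitted median of 7.44 becomes 5.91 when genes without counts take their bound. Among all genes tested, 40.4% were called higher and 38.9% lower. Some of the 11, such as Six3, passed the count filter only through MV+, so this count supports nothing about the list. The other 16 were too low to test. Foxe3, Lim2, Gja3, Cryba2 and Crybb2 had 0 counts in both lines, and Cryaa had 23 in MV+ and 1 in RAG. Six3, a lens and forebrain factor, had 1811 and 0 counts, at least 945-fold. Cryab, a crystallin that is also a stress chaperone, was lower in MV+, at 35.6 ± 3.87 against 75.0 ± 7.31 CPM (SD, n = 3). Of 19 kidney branching and tubule genes, 15 were tested, with 5 higher in MV+, 9 lower and a median of -1.99. Pax2, a kidney regulator, had 0 and 2239 counts, at least 477-fold lower in MV+, and Ret, a receptor in branching, had 80 and 27 counts. Pax2 passed the count filter only through RAG, so the kidney count supports nothing about that list either.

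**Figure D5:**
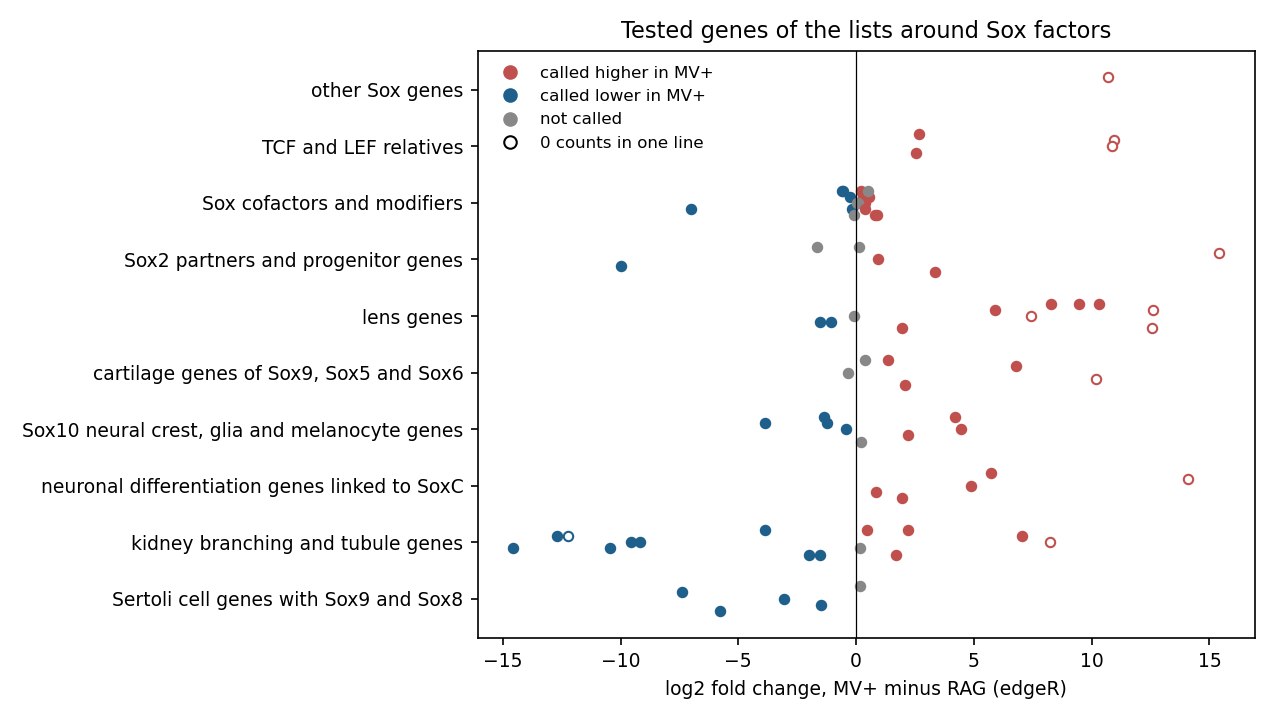
Log2 fold change, MV+ minus RAG, of each tested gene (points) in the lists around Sox factors, coloured by its edgeR call at an adjusted p under 0.05. Open points had 0 counts in one line, so their fitted values are not bounds. All tested TCF and LEF genes and all 5 tested neuronal genes lie to the right of 0. Some of both passed the count filter only through MV+, so their side of 0 supports nothing about the lists.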

How the data were processed

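RNA-seq of ribosome-depleted total RNA (kit not described as stranded, 50-nt single reads) was analysed in 3 MV+ and 3 RAG libraries. The authors aligned reads to mm9 with TopHat2 and deposited raw counts per gene from featureCounts 1.5.0-p3 at default settings, which ignore strand and drop reads at several places or genes. The deposited FPKM values equalled these counts over exon length and assigned total (largest relative difference 2.7e-15).

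Counts were tested in edgeR 4.0.16 (R 4.3.3; filterByExpr, TMM, robust quasi-likelihood, two-sided, no block) over 12965 genes, with Benjamini-Hochberg adjustment and a threshold of 0.05. DESeq2 1.42.0, limma 3.58.1 on log2(FPKM + 1) and log2(FPKM + 0.1), other factors and filters, omitted libraries and a block were alternatives. A floor of 3 counts was 0.0697 to 0.167 CPM. Bounds use 3 counts summed over a line, and they and the exact 95% intervals cover counting error only. CPM and FPKM are mean ± SD. SEs of genes with few counts understate counting error. The edgeR code was checked on simulated counts.

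Deviations of same-numbered libraries from their line means correlated at 0.2183, 0.1434 and 0.1335, each over 0.1. The labels give no shared day. The main fit used no block, and pairing by number entered only the block fit and the paired exact tests.

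Members and lists were chosen with earlier results of these data known. From each list up to 3 called genes per direction were eligible to be named, those with the largest change and at least 1 CPM in the higher line. The lists were other Sox genes, TCF and LEF genes, Sox cofactors, Sox2 partners, lens, cartilage, Sox10, neuronal SoxC, kidney and Sertoli cell genes. Older symbols of 2 genes (Mtap2, Mia1) were matched through RefSeq. Counts of calls in a list stand beside 40.4% higher and 38.9% lower calls over all genes tested. Some listed genes passed the filter only through the line where they were high, so these counts and medians support nothing about a list.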

Additional observations from a re-analysis of the deposited data

How the results depend on the processing

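Over 17 alternative fits, 6 of the 7 tested Sox genes kept their call in all, and Sox9 in 13. The number of Sox genes called lower fell from 2 to 1 with limma on log2(FPKM + 1), with and without the filter, on log2(FPKM + 0.1), and without MV+ replicates 1 and 2, an alternative chosen after seeing the data. The gene lost was Sox9 each time. Limma on FPKM shifted the median log2 fold change of all genes by 0.17 to 0.18. Sox5 was called without MV+ replicate 1 (2.78, adjusted p = 0.00031) and without MV+ replicates 1 and 2 (2.15, adjusted p = 0.03), both edgeR, but not in limma without the filter (0.07, adjusted p = 0.116). The fit without both has 1 MV+ library, assumed to vary like the RAG libraries, which alone give the spread. Leaving out single libraries gave 5 to 6 higher and 2 lower Sox genes, the sixth being Sox5.

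With the replicate block, edgeR called 10766 genes instead of 10285, and again 5 Sox genes higher and 2 lower. The lower calls among Sox2 partners went from 1 to 2 with the block, as with limma at both pseudocounts, and to 3 with DESeq2 or no filter. Limma gave 3 lower cofactors instead of 5. Without a filter, 5 Sox10 genes were higher instead of 3, and 1 neuronal gene was lower instead of 0, as with DESeq2. The causes were not tested.

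With summed CPM, not corrected for length, the share of SoxB1 in MV+ was 17.3%, of SoxC 79.1% in MV+ and 81.3% in RAG, and in RAG of SoxD 9.55% and SoxE 9.20%. With all Sox genes in the sum, SoxC took 69.3% in MV+ and 83.6% in RAG. Sox6, Sox10, and Sox2, Sox8 and Sox11 in RAG are limited by depth. The 3 flasks of 1 line cannot stand for lens or kidney lines.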
